A study of Vitis vinifera with 11 samples.

Results

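Gene expression was compared between young inflorescences and young tendrils of grapevine (Vitis vinifera) at the same node number counted from the shoot tip. The comparison used 9 of the 11 RNA sequencing libraries of the study, chosen by their labelled organ: 6 inflorescence libraries and 3 tendril libraries, each from node 1, 2 or 3 counted from the apex. At each node there was 1 inflorescence library of the picovine genotype 06C021V0046 and 1 of the picovine genotype 06C008V0003. The tendril library of each node came from Pinot Meunier L2, the control genotype, so that no genotype gave both organs. The other 2 libraries were pools of leaves, 1 of 06C021V0046 and 1 of Pinot Meunier L2, and served only to show which genes also differed between these plants in leaf. All plants were grown under the same controlled day and night regime, and the labels name neither the alleles that the picovines carry nor any treatment. Part of the labels spells the first picovine 04C021V0046.

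In grapevine, tendrils and inflorescences develop from the same kind of uncommitted primordium, formed opposite the leaves. Whether such a primordium becomes a tendril or a flower cluster depends in part on gibberellin, a hormone that favours tendrils, and on DELLA proteins, which hold back the gibberellin response. Floral organs are laid out by MADS-box transcription factors, of which the B class specifies petals and stamens and the C class stamens and carpels, together with SEPALLATA partners. Pinot Meunier is a cultivar whose cell layers differ genetically, and the labels give no further account of the L2 plants.

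The values are RPKM, reads scaled by gene length and library depth, for 25771 gene numbers. Libraries held 11361112 to 14552190 gene reads in inflorescences and 7359044 to 15177487 in tendrils, as worked back from the RPKM values. The summed RPKM of 7 floral-organ genes (MADS9, TM6, AP3, AG, MADS1, MADS2 and MADS5) was 1194 to 2237 in the inflorescences, 0.952 to 1.71 in the tendrils, and 5.51 and 3.86 in the leaf pools. Thus the organ labels and these genes go together in all 9 libraries. The sum of 2 chloroplast genes (NDHM and PSBP1) was 108 to 341 in inflorescences and 186 to 877 in tendrils, and that of 3 phenylpropanoid genes (4CL, CCOAOMT and OMT1) was 66.7 to 263 and 161 to 215. In whole organs, fewer cells of a type and less RNA per cell cannot be told apart. Nothing in the labels says that libraries came from separate plants, and the 3 tendril libraries differ in node, so the p-values measure only the spread between these libraries.

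Of 19387 genes tested, 7480 (38.6%) differed between the organs at an adjusted p under 0.05, 4811 (24.8%) higher and 2669 (13.8%) lower in inflorescences. The test was limma on log2(RPKM + 1) with node as a factor and Benjamini-Hochberg adjustment over all tested genes, and every difference below is on that scale, inflorescences minus tendrils, with its standard error (SE), 6 libraries against 3. On this scale the change of a gene with low values is understated. Differences of at least 1 were called for 2444 higher and 1753 lower genes, of at least 2 for 561 and 416, and of at least 4 for 63 and 51. The 6 and the 3 libraries did not overlap for 5332 genes (27.5%), of which 4860 were called. Both picovine lines lay above the tendril of the same node at all 3 nodes for 5778 tested genes (29.8%) and below it for 2989 (15.4%). Among the called genes 6934 (92.7%) were separated in this way, and the median size of their difference was 1.04 at node 1, 1.04 at node 2 and 1.12 at node 3.

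The split between higher and lower genes depended on the scaling of the libraries. As deposited, the median difference of all tested genes was 0.21 and 64.3% of the called genes were higher in inflorescences. After quantile normalization the median was 0.05 and the share 50.7%, and after median-ratio scaling the median was 0.00 and the share 47.7%. Differences below are therefore to be read against a shift of 0.21. Using only the 06C021V0046 inflorescences, 3 libraries against 3, 3212 genes were called, 1974 higher and 1238 lower. With 06C008V0003 alone 5817 were called.

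Genotype and organ cannot be told apart in these 9 libraries, and the leaf pools show how large differences between the plants were elsewhere. Between the leaf pools, 996 tested genes stood at least 1 log2 unit higher in 06C021V0046 and 2004 at least 1 unit higher in Pinot Meunier L2, with 1 pool each and no test. Of the 4811 genes higher in inflorescences, 572 (11.9%) differed the same way in leaf, 3803 showed no leaf difference of that size, 353 were under 1 RPKM in both pools and 83 differed the opposite way. Of the 2669 genes lower in inflorescences, 1045 (39.2%) differed the same way in leaf, against 13.2% of all tested genes. At differences of 2 or more the same-way share was 25.7% of the 561 higher genes and 65.6% of the 416 lower genes. With a leaf difference of 1.5-fold as the limit, the same-way counts were 1741 of the 4811 higher and 1556 of the 2669 lower genes. Since more genes stood higher in the Pinot Meunier L2 pool than in the other, the same-way shares of higher and lower genes do not start from the same base. The labels also place both leaf pools opposite inflorescences, although by the protocol Pinot Meunier L2 gave tendrils. Where that pool was taken is thus uncertain, and with it what the leaf classes and a fit through the leaf pools show.

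**Figure D1:**
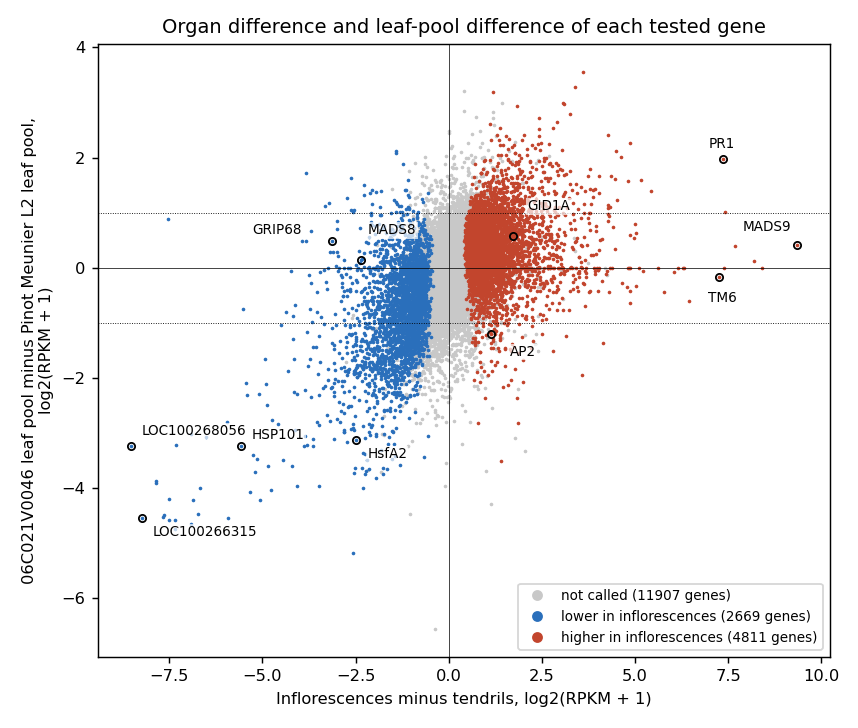
Each point is a tested gene, placed by its inflorescence minus tendril difference (x) and by the difference between the 06C021V0046 and Pinot Meunier L2 leaf pools (y), both in log2(RPKM + 1). Red and blue mark the 4811 higher and 2669 lower genes, dotted lines a leaf difference of 1 either way, and circles genes named in the text. The lower left holds many genes that were low in both picovine organs, while MADS9 and TM6 lie far right near a leaf difference of 0.

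A fit of all 11 libraries with genotype as a block, which links the organs through the leaf pools, called 75 genes (0.387%), 67 higher and 8 lower. Of these, 70 were also among the 7480. The block rests on 1 leaf pool per side, so its errors are wide. The picovine line without a leaf pool carries no information on the organ difference in this fit. The blocked value is thus the difference between the other line's inflorescences and the tendrils, less the leaf-pool difference. It takes the genotype difference to be the same in leaf as in inflorescences and tendrils. A change from the main difference can therefore come from the dropped line as well as from genotype. Only 7 of the 75 carry a symbol, and they are MADS9, TM6, AP3, AG, MADS1, MADS2 and PR1. Of 94 called genes named in the text, 84 were no longer called in that fit and 10 kept their call in every setting tried. The value with this genotype block is given beside the genes the results turn on.

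**Figure D2:**
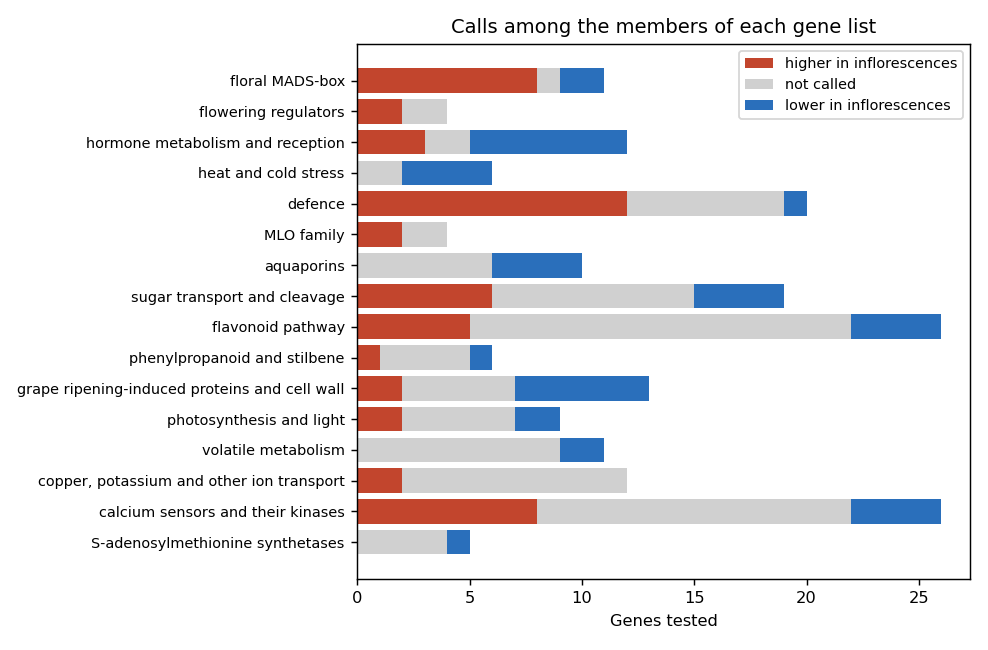
Stacked bars give, for 16 gene lists with at least 4 tested members, the number of tested genes higher in inflorescences (red), not called (grey) and lower (blue). The floral MADS-box bar is mostly red with 8 of 11 members higher, the defence bar has 12 of 20 higher, and the aquaporin and heat and cold bars have no member higher.

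Floral organ genes were among those with the widest gap between the organs. Of 11 floral MADS-box genes tested, 8 were higher in inflorescences and 2 lower, against 24.8% and 13.8% of all genes, and their median difference was 6.28 beside 0.21 for all genes. For each gene below, inflorescence values are the lowest, median and highest of the 6 libraries and tendril values are those of nodes 1, 2 and 3 in that order.

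The 3 B-class genes were nearly silent in tendrils. MADS9, the grapevine relative of PISTILLATA of Arabidopsis, was at 578, 667 and 950.5 RPKM in inflorescences and at 0.117, 0 and 0.0764 RPKM in tendrils. Every inflorescence thus was far above every tendril, and the 3 tendrils together gave 2 reads, a ratio of pooled, depth-scaled reads of 9779 (95% interval 2707 to 80753, counting error only). Its difference was 9.33 (SE 0.17, limma adjusted p = 2.87e-08) and 8.82 with the genotype block (adjusted p = 0.000147). TM6 was at 206, 220.2 and 380.3 RPKM in inflorescences and 0.692, 0.666 and 0.517 RPKM in tendrils, with a difference of 7.25 (SE 0.21, adjusted p = 2.29e-07). AP3 was at 61.1, 75.6 and 108 RPKM against 0, 0.114 and 0 RPKM, a difference of 6.28 (SE 0.22, adjusted p = 5.7e-07). Neither gene overlapped between the organs. Both kept their call with the block, at 7.25 (adjusted p = 0.000498) and 6.02 (adjusted p = 0.00176).

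Genes of the AGAMOUS clade showed the same separation with a wider range among inflorescences. AG, the C-class gene for stamens and carpels, was at 86.2, 198 and 380.1 RPKM in inflorescences and 0.119, 0 and 0.0778 RPKM in tendrils. MADS1, of the same clade, was at 48.1, 93.1 and 167 RPKM against 0, 0 and 0.102 RPKM. All inflorescences lay far above all tendrils for both genes, with differences of 7.41 (SE 0.32, adjusted p = 1.57e-06) for AG and 6.44 (SE 0.25, adjusted p = 9.35e-07) for MADS1. Between node 1 and node 3 the gap went from 6.29 to 8.31 for AG and from 5.69 to 7.07 for MADS1. No change along nodes was called for either. The leaf pools held 3.85 and 1.42 RPKM of AG, 06C021V0046 first, which is a leaf difference in the same direction. With the genotype block AG differed by 6.32 (adjusted p = 0.000517) and MADS1 by 6.96 (adjusted p = 0.000425). MADS5, of the clade's ovule branch, was lower throughout at 2.70, 7.57 and 15.5 RPKM against 0.104, 0.561 and 0 RPKM, without overlap. Its difference was 2.62 (SE 0.34, adjusted p = 0.00072) and 2.79 with the block (adjusted p = 0.12).

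The 2 genes of the SEPALLATA and AGL6 group differed in how much tendrils expressed them. MADS2, SEPALLATA-like, was at 180.3, 192 and 235 RPKM in inflorescences and 0, 0.371 and 0.180 RPKM in tendrils. MADS3, related to AGL6 of Arabidopsis, was at 57.1, 101 and 109.8 RPKM against 7.24, 15.3 and 9.17 RPKM, so that tendrils held a clear level of MADS3 and almost none of MADS2. Differences were 7.39 (SE 0.16, adjusted p = 6.65e-08) for MADS2 and 3.08 (SE 0.24, adjusted p = 4.78e-05) for MADS3. In the blocked fit they were 7.32 (adjusted p = 0.000425) and 3.73 (adjusted p = 0.0637).

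Other MADS-box genes were as high or higher in tendrils. MADS8, a relative of the Arabidopsis flowering gene SOC1, was at 6.71, 7.86 and 16.3 RPKM in inflorescences, 47.0, 37.0 and 68.1 RPKM in tendrils, and 125 and 113 RPKM in the leaf pools. Its tendrils all lay above its inflorescences and below both leaf pools, with a difference of -2.36 (SE 0.28, adjusted p = 0.000515). VFUL-L, FRUITFULL-like, was at 23.3, 32.7 and 42.3 RPKM in inflorescences and 69.3, 68.5 and 77.0 RPKM in tendrils, a difference of -1.08 (SE 0.19, adjusted p = 0.00273). AP1, named for the Arabidopsis floral meristem gene, overlapped between the organs at 118, 143 and 169 RPKM against 162, 119 and 298 RPKM. It was not called (-0.35, SE 0.20, adjusted p = 0.191), except with median-ratio scaling (-0.58, adjusted p = 0.0359). Both leaf pools held little of VFUL-L (1.96 and 0.391 RPKM) and AP1 (3.04 and 0.700 RPKM), so these 2 genes were shared by inflorescences and tendrils. Under the genotype block the differences were -2.81 for MADS8 (adjusted p = 0.0814) and -2.24 for VFUL-L (adjusted p = 0.0624).

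Of 4 flowering regulators tested, 2 were higher in inflorescences and none was lower, against 24.8% and 13.8% of all genes. So few members say little against those shares. FT, the florigen gene, was at 34.4, 66.9 and 114 RPKM in inflorescences, 6.16, 4.72 and 12.9 RPKM in tendrils and 0 in both leaf pools. Tendrils therefore held FT below every inflorescence but above leaf, and the difference was 2.94 (SE 0.27, adjusted p = 0.000116), or 3.29 with the genotype block (adjusted p = 0.0555). AP2, whose Arabidopsis relative acts in sepals and petals, was at 11.3, 24.0 and 26.2 RPKM against 8.56, 13.5 and 4.83 RPKM. The organs overlapped across nodes, but each inflorescence lay above the tendril of its own node, and AP2 was called at 1.15 (SE 0.17, adjusted p = 0.00149; 2.35 with the block, adjusted p = 0.243).

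**Figure D3:**
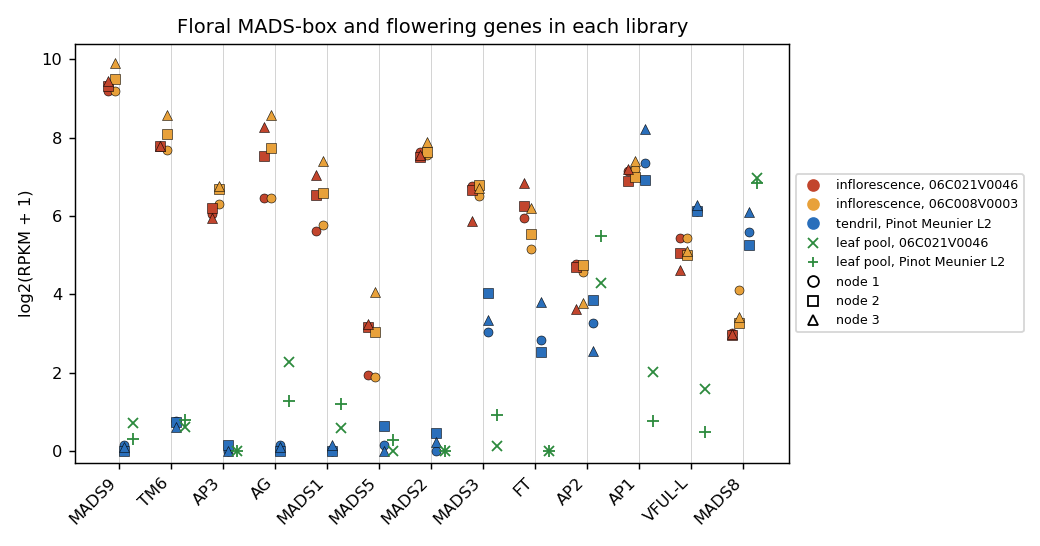
The log2(RPKM + 1) of 13 floral MADS-box and flowering genes is plotted for each library, with colour for organ and genotype and symbol shape for node. For MADS9, TM6, AP3, AG, MADS1 and MADS2 all 6 inflorescences stand far above the 3 tendrils, whereas AP1 overlaps and VFUL-L and MADS8 are higher in tendrils.

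Hormone genes were mostly lower in inflorescences, with gibberellin genes on both sides. Of 12 genes of hormone synthesis and reception, 3 were higher and 7 lower, with a median difference of -0.72. The higher count is near the 24.8% of all genes, while 13.8% of all genes were lower. GID1A, a gibberellin receptor, was at 73.7, 104 and 114 RPKM in inflorescences and 25.1, 28.9 and 32.1 RPKM in tendrils. GA20ox1, an enzyme late in gibberellin synthesis, was at 0.596, 9.92 and 33.7 RPKM against 0, 0.118 and 0.172 RPKM. Both genes were separated between the organs, GID1A by 1.72 (SE 0.14, adjusted p = 6.74e-05) and GA20ox1 by 2.95 (SE 0.62, adjusted p = 0.00624). GA20ox1 also differed the same way in leaf, at 2.26 RPKM in the 06C021V0046 pool and 0.521 RPKM in that of Pinot Meunier L2. The GA20ox1 gap was 0.79 at node 1, 3.19 at node 2 and 4.89 at node 3, though no change along nodes was called for it. BR6OX1, which makes brassinosteroids, was the third higher gene at 13.9, 19.6 and 26.03 RPKM against 5.44, 2.23 and 5.76 RPKM, a difference of 1.95 (SE 0.29, adjusted p = 0.00154). With the genotype block the 3 genes differed by 1.15 (adjusted p = 0.219), 2.07 (adjusted p = 0.217) and 1.71 (adjusted p = 0.395).

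The other 3 gibberellin genes were lower in inflorescences. GA3ox1, which makes the active hormone, was at 15.2, 24.0 and 32.8 RPKM against 62.3, 43.2 and 56.8 RPKM. GA2ox6, of the enzymes that inactivate gibberellin, was at 0, 0.0877 and 0.359 RPKM against 2.30, 2.53 and 17.2 RPKM. Inflorescences were below tendrils without overlap for both, by -1.17 (SE 0.21, adjusted p = 0.00315) for GA3ox1 and -2.43 (SE 0.39, adjusted p = 0.00212) for GA2ox6. VVGAI1, a DELLA repressor of gibberellin response, was at 0.991, 1.81 and 7.99 RPKM in inflorescences and 38.6, 68.3 and 3.21 RPKM in tendrils. The node 3 tendril fell within the inflorescence range and the others far above it, and the difference was -2.69 (SE 0.56, adjusted p = 0.0061). VVGAI1 was also lower in the 06C021V0046 leaf pool than in that of Pinot Meunier L2, at 2.098 against 13.6 RPKM. The genotype block left differences of -0.89 for GA3ox1 (adjusted p = 0.489), -1.86 for GA2ox6 (adjusted p = 0.348) and -0.21 for VVGAI1 (adjusted p = 0.973).

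Among the remaining lower hormone genes, OPR3 of jasmonate synthesis was at 21.8, 30.5 and 47.7 RPKM against 69.97, 59.7 and 71.9 RPKM. ZEP, zeaxanthin epoxidase on the path to abscisic acid, was at 15.1, 22 and 26.1 RPKM against 42.1, 30.8 and 45.3 RPKM. Neither overlapped, and the differences were -1.06 (SE 0.27, adjusted p = 0.0143) and -0.84 (SE 0.22, adjusted p = 0.015). OPR3 lost its call without the node 1 tendril (adjusted p = 0.0607) or the node 3 tendril (adjusted p = 0.0801), and ZEP likewise (adjusted p = 0.0705 and 0.0903). In the blocked fit they were at -0.02 (adjusted p = 0.991) and -0.57 (adjusted p = 0.757).

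**Figure D4:**
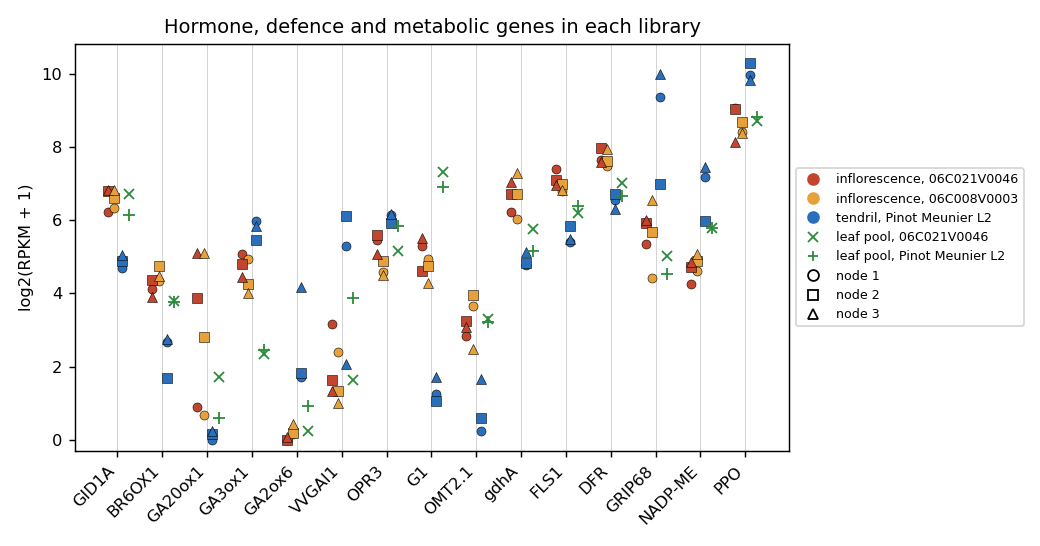
The log2(RPKM + 1) of 15 hormone, defence and metabolic genes is plotted for each library, with colour for organ and genotype and symbol shape for node. GID1A, BR6OX1, GA20ox1, G1, OMT2.1, gdhA, FLS1 and DFR lie higher in every inflorescence than in any tendril, and the node 3 tendril of VVGAI1 sits among the inflorescences.

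Defence genes were mostly higher in inflorescences. Of 20 tested, 12 were higher and 1 lower, against 24.8% and 13.8% of all genes, with a median of 1.11. After quantile normalization 7 were higher. In 6 of the 12 the 06C021V0046 leaf pool was also higher by at least 1 log2 unit, and G1, CHI4C and EDS1 were among those higher there by less. PR1, a pathogenesis-related secreted protein, was at 496, 808 and 1609 RPKM in inflorescences, 3.91, 3.24 and 4.62 RPKM in tendrils, and 3338 and 848 RPKM in the leaf pools. Tendrils were thus the low organ and the 06C021V0046 leaves the highest. Its difference was 7.35 (SE 0.24, adjusted p = 4.32e-07), and 5.52 with the genotype block (adjusted p = 0.0398).

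The same order, tendrils lowest and leaf pools high, was seen in other defence genes. G1, a beta-1,3-glucanase, was at 18.4, 27.7 and 44.7 RPKM in inflorescences, 1.36, 1.08 and 2.30 RPKM in tendrils and 158 and 118 RPKM in leaf. PR10.3 was at 21.3, 38.6 and 259 RPKM against 1.01, 2.20 and 1.15 RPKM, and PR10.2 at 104, 152 and 480.0 RPKM against 13.8, 24.4 and 23.3 RPKM. None overlapped, with differences of 3.56 for G1 (SE 0.28, adjusted p = 5.68e-05), 4.37 for PR10.3 (SE 0.61, adjusted p = 0.00104) and 3.26 for PR10.2 (SE 0.46, adjusted p = 0.00114). PR10 genes are a family of close copies, between which the counting could split reads, so the values of single members are uncertain. Under the genotype block the differences were 3.39 (adjusted p = 0.0672), 2.12 (adjusted p = 0.615) and 1.59 (adjusted p = 0.714).

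Other defence genes were called with less margin. The chitinase gene CHI4C ranged from 0.718 over a median of 44.5 to 398 RPKM in inflorescences and was at 2.30, 2.71 and 2.63 RPKM in tendrils. Its organs overlapped, and the difference was 2.90 (SE 0.98, adjusted p = 0.0443). It lost its call without any 1 of 7 libraries: the node 1 inflorescence of 06C021V0046 (adjusted p = 0.0589), either node 2 inflorescence (0.083 for 06C021V0046, 0.0513 for 06C008V0003), either node 3 inflorescence (0.0614 and 0.0741) and the node 2 or node 3 tendril (0.148 and 0.264). It was also lost under both rescalings, at adjusted p = 0.0594 with quantile normalization and 0.0677 with median-ratio scaling. EDS1, a regulator of immune signalling, was at 10.35, 14.9 and 30.9 RPKM against 9.75, 8.05 and 5.81 RPKM. Its groups barely separated (0.97, SE 0.25, adjusted p = 0.015), and the call was lost without the node 1 tendril (adjusted p = 0.065) or the node 3 tendril (adjusted p = 0.0573). Outside the defence list, OMT2.1, a resveratrol O-methyltransferase, was at 4.60, 7.98 and 14.5 RPKM against 0.187, 0.505 and 2.14 RPKM, a difference of 2.38 (SE 0.40, adjusted p = 0.00242). OMT2.1 lost its call only with the genotype block.

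MLO genes, a membrane protein family known for its part in powdery mildew susceptibility, were called in 2 of 4 cases, both higher. Among all genes 24.8% were higher, and after quantile normalization 1 of the 4 MLO genes was. MLO6 was at 11.3, 22.3 and 35.5 RPKM against 5.16, 11.7 and 2.08 RPKM, with a slight overlap and a difference of 1.81 (SE 0.28, adjusted p = 0.00169). MLO7 was at 0.694, 1.29 and 3.73 RPKM against 0.175, 0.392 and 0.190 RPKM, a difference of 1.00 (SE 0.28, adjusted p = 0.0215). MLO7 lost its call without the node 1 tendril (adjusted p = 0.124) and with quantile normalization (adjusted p = 0.095).

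Heat stress genes were lower in inflorescences, and the leaf pools differed in the same direction. Of 6 heat and cold genes tested, 4 were lower and none higher (13.8% and 24.8% of all genes), with a median of -1.63. In 3 of the 4 the 06C021V0046 leaf pool was lower by at least 1 log2 unit, and in TIL by less, at 140.3 against 240.0 RPKM. HSP101, a chaperone that dissolves protein aggregates, was at 1.45, 10.16 and 13.6 RPKM in inflorescences, 483, 557 and 229 RPKM in tendrils, and 25.6 and 251 RPKM in the leaf pools. Each tendril exceeded each inflorescence many times over, and the Pinot Meunier L2 leaves lay near the node 3 tendril. HsfA2, a heat shock transcription factor, was at 17.3, 21.1 and 23.4 RPKM against 108, 128 and 124 RPKM, with 7.32 and 72.4 RPKM in leaf. The differences were -5.57 for HSP101 (SE 0.28, adjusted p = 3.63e-06) and -2.48 for HsfA2 (SE 0.15, adjusted p = 1.05e-05). With the genotype block they were -2.60 (adjusted p = 0.241) and 0.65 (adjusted p = 0.574).

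The other lower genes of that list were BiP and TIL. BiP, an endoplasmic reticulum chaperone by its name, was at 0.272, 1.65 and 2.51 RPKM against 6.20, 7.23 and 5.40 RPKM (-1.63, SE 0.23, adjusted p = 0.00118). TIL, a temperature-induced lipocalin, was at 90.8, 113 and 162 RPKM against 345, 288 and 512 RPKM (-1.62, SE 0.16, adjusted p = 0.000203). Neither overlapped between organs, and with the block they were at 0.45 (adjusted p = 0.803) and -0.76 (adjusted p = 0.586).

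Of 10 aquaporin genes tested, whose proteins carry water across membranes, 4 were lower in inflorescences and none was higher, against 13.8% and 24.8% of all genes, with a median of -0.87. With the picovine line as a replicate block 6 were lower, PIP1;1 (adjusted p = 0.0235) and PIP2;2 (adjusted p = 0.0128) being added. The line block takes the steady spread between the lines out of the error, so the added calls do not allow for differences between genotypes. The lines differed in TIP1;1, at 122, 128 and 170.3 RPKM in 06C021V0046 and 23.6, 30.9 and 44.0 RPKM in 06C008V0003 at nodes 1 to 3. Its value in the blocked fit rests on the 06C021V0046 inflorescences, so its change there is not one of genotype alone. TIP1;1 of the vacuole membrane was at 23.6, 83.0 and 170.3 RPKM against 755, 509.9 and 527 RPKM, and TIP1;2 at 232, 475 and 873 RPKM against 1196, 1072 and 1616 RPKM. PIP2;3 of the plasma membrane was at 71.7, 111 and 167 RPKM against 396, 518 and 397 RPKM. PIP1;3 was at 841, 1183 and 1729.5 RPKM against 1930.0, 2024 and 2677 RPKM. All 4 genes were separated, by -3.12 (SE 0.64, adjusted p = 0.00599), -1.54 (SE 0.37, adjusted p = 0.0116), -1.97 (SE 0.29, adjusted p = 0.00127) and -0.92 (SE 0.26, adjusted p = 0.023). The leaf pools, 06C021V0046 first, differed the same way for TIP1;1 (162 and 346 RPKM) and PIP2;3 (98.1 and 293 RPKM). TIP1;2 (355 and 348 RPKM) and PIP1;3 (940 and 1605 RPKM) showed no leaf difference of 1. TIP1;2 lost its call without the node 1 tendril (adjusted p = 0.0513). PIP1;3 lost it without any 06C008V0003 inflorescence (adjusted p = 0.0503, 0.0557 and 0.0591 for nodes 1 to 3) and without the node 1 or node 3 tendril (0.0804 and 0.0883). In the blocked fit the 4 were at -0.98, -1.01, 0.01 and 0.09, none called (adjusted p = 0.377 to 0.998).

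Sugar transport genes were called in both directions, 6 higher and 4 lower of 19 tested. Quantile normalization made this 4 and 5 and median-ratio scaling 4 and 6, so the balance depended on the scaling, and the shares of all genes were 24.8% and 13.8%. SWEET15, a sugar exporter, ranged most, at 0.456, 58.8 and 291 RPKM in inflorescences against 0, 0 and 0.0546 RPKM in tendrils and 0 in both leaf pools. A single tendril read stood against 8571 inflorescence reads, and the difference was 4.87 (SE 0.95, adjusted p = 0.00475; 5.498 with the block, adjusted p = 0.104). At nodes 1, 2 and 3 the SWEET15 gap was 1.37, 5.87 and 7.38, though no change along nodes was called for it. VVSUC27, a sucrose carrier, was at 2.31, 4.07 and 8.78 RPKM against 45.05, 22 and 14.6 RPKM, with 9.79 and 44.3 RPKM in leaf. TMT3, a tonoplast sugar carrier, was at 1.81, 2.25 and 3.39 RPKM against 14.1, 4.08 and 21.02 RPKM. CWINV, a cell wall invertase that splits sucrose, was at 2.19, 4.69 and 7.20 RPKM against 0.784, 0.776 and 0.547 RPKM. It was also higher in the 06C021V0046 leaf pool than in that of Pinot Meunier L2, at 28.3 against 12.8 RPKM. None of the 3 overlapped, and they differed by -2.31 (SE 0.26, adjusted p = 0.000371), -1.84 (SE 0.31, adjusted p = 0.0024) and 1.63 (SE 0.32, adjusted p = 0.00483). With the block they were at 0.06 (adjusted p = 0.978), -2.09 (adjusted p = 0.514) and 0.15 (adjusted p = 0.945).

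The remaining named sugar genes had smaller margins. PMT4, a polyol or monosaccharide carrier, was at 8.81, 11.5 and 13.3 RPKM against 23.1, 15.6 and 34.6 RPKM (-1.01, SE 0.21, adjusted p = 0.00641). HXK2, a hexokinase, was at 14.95, 34.5 and 35.3 RPKM against 49.2, 53.2 and 50.1 RPKM (-0.80, SE 0.22, adjusted p = 0.0188), a call lost without the node 3 tendril (adjusted p = 0.116). The carrier gene VGT2 was at 6.66, 10.03 and 13.5 RPKM against 5.52, 3.62 and 6.39 RPKM (0.85, SE 0.21, adjusted p = 0.0132), lost without the node 2 or node 3 tendril (0.0564 and 0.0557). The hexose carrier gene HT2 was at 13.5, 24.4 and 38.4 RPKM against 8.88, 12.99 and 8.34 RPKM (1.15, SE 0.31, adjusted p = 0.0187). HT2 lost its call without the node 1 or node 3 tendril (0.0555 and 0.11) and under both rescalings (0.0519 and 0.066). PMT2 was at 0.385, 1.99 and 29.2 RPKM against 0.0627, 0.169 and 0.0819 RPKM (1.92, SE 0.61, adjusted p = 0.0341). PMT2 was lost under both rescalings (0.0696 and 0.0511), without the node 2 inflorescence of 06C021V0046 (0.0613), without the node 3 inflorescence of 06C008V0003 (0.0579) and without the node 2 or node 3 tendril (0.0594 and 0.183).

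Grape ripening-induced proteins and cell wall genes were called lower in 6 and higher in 2 of 13 cases, against 13.8% and 24.8% of all genes, with a median of -0.50. GRIP68, a ripening-induced protein gene, was at 20.6, 55.3 and 92.8 RPKM in inflorescences and 668, 127 and 1036 RPKM in tendrils. PEL, a pectate lyase that cuts cell wall pectin, was at 0.861, 2.83 and 4.47 RPKM against 19.8, 7.10 and 28.2 RPKM. In both genes the node 2 tendril was the lowest of the 3 and still above every inflorescence. Differences were -3.14 (SE 0.52, adjusted p = 0.00239) and -2.23 (SE 0.42, adjusted p = 0.00379), with no leaf difference of 1. GRIP28 at 22.2, 56.1 and 211 RPKM against 284, 102 and 578 RPKM (-1.998, SE 0.42, adjusted p = 0.00642) and VPRP1, a proline-rich protein gene, at 9.16, 10.95 and 19.8 RPKM against 61.8, 28.2 and 18.7 RPKM (-1.28, SE 0.20, adjusted p = 0.00174) overlapped between organs.

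PL1 followed the same node order in tendrils. It was at 42.7, 58.8 and 84.0 RPKM against 238, 47.5 and 605.5 RPKM (-1.66, SE 0.49, adjusted p = 0.0255). It lost its call without either node 1 inflorescence (adjusted p = 0.0518 for 06C021V0046 and 0.0511 for 06C008V0003), the node 3 inflorescence of 06C008V0003 (0.0548) or the node 1 or node 3 tendril (0.142 and 0.155). METK2, an S-adenosylmethionine synthetase and the 1 called of 5, was at 199, 261 and 324 RPKM against 743, 299 and 1308 RPKM (-1.38, SE 0.34, adjusted p = 0.0123). METK2 was not called without the node 1 tendril (0.0649) or the node 3 tendril (0.0776). BG1 was at 2.61, 3.26 and 12.6 RPKM against 1.10, 0.262 and 1.23 RPKM, the highest-ranked rise of the cell wall list (1.65, SE 0.29, adjusted p = 0.0029).

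Flavonoid genes were called in 9 of 26 cases, 5 higher and 4 lower, with a median of 0.08, shares near those of all genes. Median-ratio scaling made it 3 higher and 5 lower. FLS1, which makes flavonols, was at 110.4, 125 and 169.6 RPKM against 41.1, 56.9 and 44.3 RPKM. DFR, at the entry to anthocyanins and tannins, was at 178, 199 and 249.8 RPKM against 92.4, 105 and 78.7 RPKM. Both were separated, by 1.43 (SE 0.19, adjusted p = 0.00073) and 1.18 (SE 0.18, adjusted p = 0.00147), and showed no leaf difference of 1. The 2 leucoanthocyanidin reductases of tannin synthesis were called in opposite directions. LAR1 was at 43.8, 86.6 and 101 RPKM against 24.7, 9.42 and 50.6 RPKM, with the node 3 tendril above the lowest inflorescence (1.70, SE 0.37, adjusted p = 0.00712). LAR2 was at 5.66, 7.57 and 16.4 RPKM against 43.6, 19.9 and 22.4 RPKM (-1.59, SE 0.26, adjusted p = 0.00205). LAR2 also differed the same way in leaf, at 12.3 and 46.6 RPKM, and LAR1 was at 33.5 and 26.6 RPKM there. The fit holds no test of one gene against the other. Under the genotype block the 4 were at 1.77, 0.84, 1.53 and 0.49, none called (adjusted p = 0.129, 0.513, 0.647 and 0.819).

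Transcription factors of the flavonoid list were among the lower genes. MYB12, which regulates flavonol synthesis, was at 10.37, 12.1 and 13.9 RPKM against 40.2, 51.2 and 21.6 RPKM (-1.46, SE 0.23, adjusted p = 0.00181). MYB4B was at 4.28, 8.74 and 12.6 RPKM against 25.7, 18.7 and 17.7 RPKM (-1.27, SE 0.21, adjusted p = 0.00213). MYC1 was at 3.71, 12.6 and 51.5 RPKM against 58.2, 104 and 5.65 RPKM, with the node 3 tendril inside the inflorescence range (-1.33, SE 0.43, adjusted p = 0.0383). MYC1 lost its call without the node 1 inflorescence of 06C008V0003 (0.0716), either node 2 inflorescence (0.0748 and 0.0666), the node 3 inflorescence of 06C008V0003 (0.0551) or the node 2 tendril (0.145). The call was also lost with a pseudocount of 5 (0.0516), without a filter (0.0625), with linear node (0.0669) and with all 11 libraries (0.0983). The leaf pools differed the same way for MYC1 (15.8 and 75.8 RPKM) and MYB12 (9.56 and 21.8 RPKM). The genotype block put MYB12 at -0.39 (adjusted p = 0.854), MYB4B at -0.79 (adjusted p = 0.616) and MYC1, with its sign turned, at 1.04 (adjusted p = 0.836).

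Among the 6 phenylpropanoid and stilbene genes, OMT2.1 was higher and 4CL lower, where 24.8% of all genes were higher and 13.8% lower. 4CL, which feeds lignin and flavonoid synthesis, was at 16.5, 28.4 and 70.4 RPKM against 139.6, 133 and 28.7 RPKM. The node 3 tendril fell among the inflorescences (-1.41, SE 0.33, adjusted p = 0.0101). The call was lost without the node 1 tendril (adjusted p = 0.0547) or the node 2 tendril (adjusted p = 0.0567). The leaf pools differed the same way, at 29.4 and 76.1 RPKM, and the genotype block turned the difference to 0.26 (adjusted p = 0.931).

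Photosynthesis and pigment genes were called in 4 of 9 cases, 2 in each direction, near the 38.6% of all genes. PSBP1, an extrinsic protein of photosystem II, was at 96.0, 170.3 and 336 RPKM against 752, 868 and 175 RPKM (-1.58, SE 0.30, adjusted p = 0.00412). CHLH, a subunit of the enzyme that inserts magnesium into chlorophyll, was at 8.25, 60.1 and 91.3 RPKM against 172, 154 and 74.3 RPKM (-1.58, SE 0.35, adjusted p = 0.00828). In both the node 3 tendril lay within the inflorescence range, and CHLH was not called without it (adjusted p = 0.0546). The higher genes were PDS1 (0.83, SE 0.18, adjusted p = 0.00809) and PIFI (0.81, SE 0.18, adjusted p = 0.0088). PIFI differed the same way in leaf, at 16.8 and 4.95 RPKM, was not called with all 11 libraries (adjusted p = 0.0755), and turned to -0.75 with the genotype block (adjusted p = 0.648).

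Volatile genes were lower in 2 of 11 cases and higher in none. The lower count is near the 13.8% of all genes, of which 24.8% were higher. ADH3, an alcohol dehydrogenase, was at 2.21, 6.18 and 19.0 RPKM against 54.9, 50.9 and 8.57 RPKM, again with the node 3 tendril among the inflorescences (-2.003, SE 0.27, adjusted p = 0.000821). CCD1, a carotenoid cleavage dioxygenase, was at 52.4, 76.6 and 99.4 RPKM against 155, 116 and 191 RPKM (-0.97, SE 0.25, adjusted p = 0.015). CCD1 was lost without the node 1 or node 3 tendril (0.0669 and 0.0915). Of 12 ion transport genes 2 were higher and none lower, no more than those shares of all genes. CTR7, of the copper transporter family, was at 0.920, 3.47 and 106 RPKM against 0, 0 and 0.378 RPKM (2.73, SE 0.75, adjusted p = 0.0199), lost without the node 3 tendril (0.115). The potassium channel gene K1.2 was at 1.85, 2.53 and 4.97 RPKM against 0.670, 0.652 and 0.802 RPKM (1.13, SE 0.25, adjusted p = 0.00832).

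Calcium sensors and their kinases were called in both directions. Of 8 CBL genes, calcium sensors, 6 were higher and none lower. Of 18 CIPK genes, the kinases they bind, 2 were higher and 4 lower. Among all genes 24.8% were higher and 13.8% lower. Over the 26 genes the 8 higher and 4 lower calls became 6 and 6 under both rescalings, and no test compared the families. CBL08 was at 7.24, 9.61 and 12.5 RPKM against 2.48, 3.77 and 2.98 RPKM (1.40, SE 0.22, adjusted p = 0.00193). CBL05 was at 7.08, 8.77 and 13.7 RPKM against 3.99, 1.07 and 6.05 RPKM (1.32, SE 0.27, adjusted p = 0.00615), and CBL06 at 15.4, 26.8 and 32.8 RPKM against 9.96, 9.72 and 19.7 RPKM (0.94, SE 0.19, adjusted p = 0.00526). CBL05 and CBL08 were separated and CBL06 overlapped.

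On the kinase side CIPK20 was at 0.510, 0.900 and 2.43 RPKM against 15.5, 11.3 and 2.48 RPKM (-2.13, SE 0.29, adjusted p = 0.000909). CIPK02 was at 11.4, 46.1 and 81.4 RPKM against 173, 143 and 183 RPKM (-2.10, SE 0.39, adjusted p = 0.00362). CIPK08 was at 3.99, 4.94 and 7.44 RPKM against 15.9, 14.03 and 14.5 RPKM (-1.33, SE 0.23, adjusted p = 0.00261). All 3 were lower in every inflorescence, and the Pinot Meunier L2 leaf pool held more of each than the 06C021V0046 pool (3.94 against 0.672, 162 against 57.6 and 16.8 against 8.39 RPKM). The higher kinases CIPK07 at 16.9, 22.9 and 26.2 RPKM against 11.2, 9.92 and 12.8 RPKM (0.91, SE 0.19, adjusted p = 0.0061) and CIPK17 at 10.36, 13.2 and 16.9 RPKM against 6.82, 5.02 and 8.42 RPKM (0.90, SE 0.18, adjusted p = 0.00579) were separated by less.

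Enzyme genes outside these lists differed too, and the first 3 below showed no leaf difference of 1. gdhA, a glutamate dehydrogenase of nitrogen metabolism, was at 65.3, 105 and 156 RPKM against 26.7, 27.3 and 34.0 RPKM (1.77, SE 0.17, adjusted p = 0.000184). NADP-ME, a malic enzyme, was at 18.0, 26.7 and 32.7 RPKM against 146, 62.6 and 175 RPKM (-2.15, SE 0.28, adjusted p = 0.000699), and its 2 leaf values were alike at 54.5 and 54.4 RPKM. PPO, a polyphenol oxidase that browns tissue, was at 281, 377 and 540.3 RPKM against 1000.5, 1269.6 and 913 RPKM (-1.41, SE 0.22, adjusted p = 0.00197). These 3 genes were separated in full. With the genotype block they were at 1.15 (adjusted p = 0.234), -2.28 (adjusted p = 0.284) and -1.19 (adjusted p = 0.494).

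Further tendril-high genes were separated as well. POD1, a peroxidase, was at 2.11, 4.32 and 13.6 RPKM against 63.1, 49.1 and 17.4 RPKM (-2.73, SE 0.27, adjusted p = 0.000184). VVGT6, a glycosyltransferase, was at 0.455, 1.47 and 4.14 RPKM against 23.1, 16.9 and 8.46 RPKM (-2.67, SE 0.22, adjusted p = 7.08e-05). CYN, a cyanase, was at 27.6, 42.2 and 77.7 RPKM against 151, 226 and 113 RPKM (-1.84, SE 0.24, adjusted p = 0.00072). POD1 and VVGT6 were also higher in the Pinot Meunier L2 leaf pool (20.1 against 4.47 RPKM and 21.4 against 5.28 RPKM). PLD, a phospholipase D, was at 135, 201 and 268 RPKM against 537, 398 and 497 RPKM (-1.28, SE 0.24, adjusted p = 0.00424). Trxh, a thioredoxin, was at 454, 538 and 895 RPKM against 1062, 1266 and 1738 RPKM (-1.12, SE 0.20, adjusted p = 0.00341). ZFPL was at 3.40, 6.51 and 12.1 RPKM against 18.0, 25.7 and 22.5 RPKM (-1.62, SE 0.34, adjusted p = 0.00606). CYN, PLD, Trxh and ZFPL also showed no leaf difference of 1.

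HP2 and HP3 were higher in inflorescences. HP2 was at 12.0, 13.9 and 34.3 RPKM against 0.332, 0.224 and 0.326 RPKM, a difference of 3.88 (SE 0.25, adjusted p = 1.75e-05), and 3.04 and 0.659 RPKM in leaf. HP3 was at 81.4, 87.7 and 108 RPKM against 21.9, 40.6 and 20.8 RPKM, a difference of 1.72 (SE 0.21, adjusted p = 0.000582). The groups were apart in both genes, and in HP3 the leaf pools were close, at 60.7 and 57.6 RPKM.

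Genes known only by a locus number reached differences as wide as the MADS-box genes. LOC100242221 was at 41.5, 412 and 2617 RPKM in inflorescences, at 0, 0.0888 and 0 RPKM in tendrils and at 0 in both leaf pools (8.41, SE 0.75, adjusted p = 9.96e-05; 8.75 with the genotype block, adjusted p = 0.000376). LOC100249955 was at 7.59, 756 and 1500.5 RPKM against 0.332, 0.112 and 0.109 RPKM (8.20, SE 1.09, adjusted p = 0.000823; 8.90 with the block, adjusted p = 0.114). Both genes varied widely among inflorescences, rising from node to node in each picovine line, while tendrils stayed near 0. In all, 27 genes had at least 5 RPKM in every inflorescence and under 0.5 in every tendril, and 14 of them were also under 0.5 in both leaf pools. The reverse pattern was found in 10 genes, none of which was low in both leaf pools.

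The 2 locus-number genes with the widest falls lay in 1 run of neighbouring genes. Taking tested genes in the order of the RefSeq annotation of assembly ASM3070453v1, used only for adjacency, 11 genes in a row were lower in inflorescences, by -8.52 to -1.54, and all 11 were also lower in the 06C021V0046 leaf pool. LOC100268056 was at 0.580, 0.833 and 2.63 RPKM in inflorescences, 667, 1135 and 590.1 RPKM in tendrils, and 38.3 and 371 RPKM in leaf. LOC100266315 was at 0.0982, 0.657 and 1.16 RPKM against 413, 652 and 376 RPKM, with 14.01 and 352 RPKM in leaf. They differed by -8.52 (SE 0.33, adjusted p = 9.35e-07) and -8.23 (SE 0.28, adjusted p = 5.61e-07), and by -5.02 (adjusted p = 0.0353) and -3.62 (adjusted p = 0.0638) with the genotype block. Over the 11 genes the leaf pool of Pinot Meunier L2 was at 4.38 to 371 RPKM and that of 06C021V0046 at 0 to 38.3 RPKM. The naming table gives these genes no function, and close copies among neighbours could share reads, which was not tested.

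**Figure D5:**
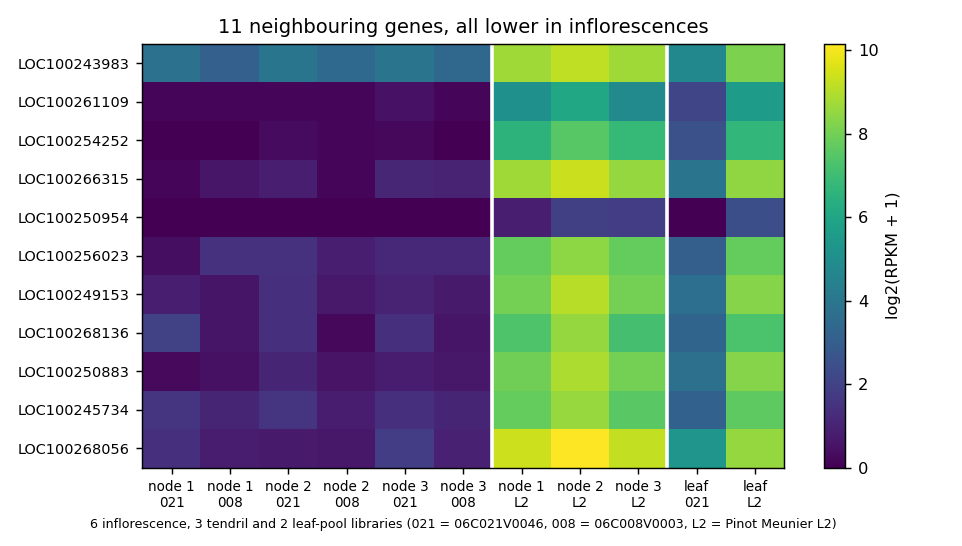
Colour gives log2(RPKM + 1) of 11 neighbouring genes, in annotation order from top to bottom, in the 6 inflorescence, 3 tendril and 2 leaf-pool libraries, parted by white lines. Inflorescence columns are dark and tendril columns bright, except that LOC100250954 is low throughout, and the Pinot Meunier L2 leaf pool is brighter than that of 06C021V0046 in every gene.

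Few genes passed the test for a gap between the organs that changed along the shoot. For the slope over nodes 1 to 3 in inflorescences minus that in tendrils, 2 of 19387 genes (0.0103%) passed an adjusted p of 0.05 in limma. An unadjusted p under 0.05 was found for 915, no more than chance alone would give at that limit. LOC100267971 was at 0.960 and 1.03 RPKM in the node 1 inflorescences, 7.74 and 10.24 RPKM at node 2 and 47.3 and 46.1 RPKM at node 3, 06C021V0046 first, and had no read in any tendril. Its pooled level was at least 186-fold higher in inflorescences, against a floor of 3 reads over the tendril group, and its slope difference was 2.29 per node (adjusted p = 0.0376). Gene number 100258942 (gene_100258942), which the naming table does not hold, was at 6.66 and 4.55, 24.2 and 26.5, and 133 and 163 RPKM at nodes 1, 2 and 3 of inflorescences. Its tendrils were at 5.36, 4.34 and 3.58 RPKM, so the organs overlapped at node 1 and parted at nodes 2 and 3. The slope difference was 2.49 per node (adjusted p = 0.0376). The count of such genes was 443 without the node 1 tendril, 314 without the node 3 tendril, 24 without the node 2 inflorescence of 06C008V0003 and 0 without any other single library. It was 7 with the picovine line as a replicate block.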

How the data were processed

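Messenger RNA was sequenced single-end with the Illumina mRNA protocol, per the labels' protocols. The authors deposited 1 table per library with an RPKM value for each numbered gene, and the submitters' processing notes name TopHat 1.2.0 and Bowtie 0.12.7. Genome build, annotation, strand handling and the treatment of reads from close copies are not given in the sources used here. Names came from a match of the gene numbers to the RefSeq naming table of assembly ASM3070453v1, which held 18647 of 25771 (72.4%), 309 of them with a symbol or synonym. It served for names and for which genes neighbour each other. Protein and promoter sequences were not used here.

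All 24365 genes above 0 gave whole reads (within 0.01 read, or somewhat more at the highest counts), from which depths and pooled read ratios were computed. The smallest numbers that fitted were taken, so a gene seen in only 1 library was set to 1 read. For genes seen in few libraries a whole number is therefore no check of the recovery. The 9 libraries held 7359044 to 15177487 gene reads, so that in the shallowest library 3 reads of a 1 kb gene correspond to 0.408 RPKM. Read ratios carry exact 95% intervals and floors of 3 reads, which cover counting error only.

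Genes with at least 1 RPKM in at least 2 of the 9 libraries were fitted on log2(RPKM + 1) with limma 3.58.1 in R 4.3.3, with an intensity trend, node as a factor and organ as the tested term (5 residual and 3.94 prior degrees of freedom). Tests were two-sided with Benjamini-Hochberg adjustment over the 19387 genes tested, and the procedure was tested on simulated data. Change along nodes was tested as the product of organ and linear node. Same-numbered inflorescence libraries are the same picovine line, per the titles. The difference between the lines correlated across genes between nodes with r = 0.634, 0.554 and 0.695, so line was tried as a replicate block. The alternatives were other pseudocounts, filters, scalings and designs, each library left out in turn, and limma-voom on the recovered reads, which was chosen after seeing the data.

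Genes were named by rank of difference among called genes with a symbol, among all of them, among those without a leaf difference, and in each list (up to 5), plus 2 locus numbers each way. MADS5, VFUL-L, AP1, OPR3, ZEP, EDS1, PMT4, HXK2, VGT2, VPRP1, CBL06, CIPK07, CIPK17, PIP1;1 and PIP2;2, the 2 genes of the node test and the neighbour runs were named outside that rule, after their values were seen. Members and lists were chosen with the naming table and earlier results of these data known. Relatives by protein sequence, which the rule foresaw, were not looked up.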

Additional observations from a re-analysis of the deposited data

Results flagged for a closer look

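In 3 of the 95 named genes, 1 of the 6 inflorescence libraries lay apart from the other 5 on the log2(RPKM + 1) scale by Dixon's criterion at the 95% level. Chance flags about 1 in 20 groups, so 3 of 95 is no more than chance gives. On RPKM itself 15 genes met the criterion, these 3 among them. MADS2 was highest at 235.3 RPKM in the node 3 inflorescence of 06C008V0003, next to 198.7 RPKM in the nearest library. MADS3 was lowest at 57.13 RPKM in the node 3 inflorescence of 06C021V0046, next to 90.49 RPKM. PR10.3 was highest at 259.3 RPKM in the node 1 inflorescence of 06C008V0003, next to 42.76 RPKM. All 3 genes kept their organ call with any 1 library left out.

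The slope along nodes differed between the organs by a test of the difference itself for LOC100267971, by 2.289 on the log2 scale per node, and for gene_100258942, by 2.491. Both had an adjusted p of 0.0376 in limma.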

How the results depend on the processing

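The count of 7480 called genes stayed within 1.5 times under other pseudocounts, filters and scalings, without the intensity trend, with 06C008V0003 alone, with linear node, with all 11 libraries, and with voom (5817 to 7705). With picovine line as a replicate block it was 8615, of which 7410 were among the 7480, and that block ended no call of a named gene and, beside those given with the aquaporins, changed no other call that is named. The line block leaves the organ difference as it was and takes the steady spread between the lines out of the error. Its calls thus do not allow for differences between genotypes, and a call kept there is no sign of stability. Leaving out 1 library gave 5138 to 7619 genes (3249 to 5020 higher and 1854 to 2603 lower), fewest without the node 3 tendril. With the 06C021V0046 inflorescences only it was 3212 (1974 higher, 1238 lower). The fit with 06C008V0003 alone, which gave 5817, held as many libraries, and the cause of the gap between these counts was not tested. Genotype as a replicate block gave 75 (67 higher, 8 lower). That block also turned the sign of 9 named genes, none of them called there: HsfA2 to 0.65, BiP to 0.45, PIP2;3 to 0.0062, PIP1;3 to 0.093, VVSUC27 to 0.056, LAR2 to 0.49, 4CL to 0.26, MYC1 to 1.04 and PIFI to -0.75. Of 94 called named genes, 66 kept their call in every setting but that block, and 19 lost it without some single library. PMT4, Trxh, CBL05, CBL06, CIPK07, CIPK17, PDS1 and K1.2 lost it with the 06C021V0046 inflorescences only and in no other setting but the genotype block. Another pseudocount or the lack of a filter ended the call of MYC1, CHI4C, PMT2, CTR7, MLO7 and PIP1;3. Lowering the leaf difference to 1.5-fold raised the number of higher genes that differ the same way in leaf from 572 to 1741.

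The count of 2 genes along nodes was 1 with a pseudocount of 0.1, 0 with a pseudocount of 5, 0 without a filter, 0 with voom, 7 with the line as a replicate block and 0 to 443 with 1 library left out. The cause of these changes was not tested. One tendril library per node and 1 leaf pool per genotype limit all results, and genotype and organ cannot be told apart.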

Other observations

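Runs of at least 5 adjacent tested genes with the same call numbered 62, of which 49 were higher and 13 lower in inflorescences, and they held 364 genes. The longest run, from LOC100264828 to LOC100266494, held 12 genes, all higher, by 1.12 to 4.28 on the log2 scale. Their inflorescence medians were 2.20 to 43.7 RPKM and their tendril medians 0 to 4.97 RPKM, and 11 of the 12 were also at least 1 log2 unit higher in the 06C021V0046 leaf pool. None was called with the genotype block. A run of 10 higher genes, from LOC100250828 to LOC100250973, differed by 0.80 to 2.54, with no leaf difference of 1 in the same direction in any of the 10. The runs were found after the values were seen and no test was made of their number.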
